A study of Mus musculus with 48 samples.

Results

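The 6 libraries described here measured RNA of wild-type mouse bone marrow-derived macrophages (BMDM) that had been polarized with interleukin-4 and interleukin-13 and then exposed to the compound AP-3-84. They were chosen by their titles, 3 with AP-3-84 and 3 with the vehicle DMSO, from the 48 libraries of the series. The cells came from C57BL/6 bone marrow, were cultured 6 days with the macrophage growth factor M-CSF (10 ng/mL), and then received both cytokines over 24 h, IL-4 (10 ng/mL) plus IL-13 (10 ng/mL), a state called WT_M2. The last step was 4 h with 10 uM AP-3-84 or as much DMSO, so every library of both groups carries the cytokine treatment. AP-3-84 is known here only by its code name. For comparison, 6 libraries of unpolarized wild-type cells (WT_M0) and 6 of p53 knockout cells under IL-4 and IL-13 (KO_M2) had the same AP-3-84 or DMSO treatment, and wild-type DMSO cells given LPS (100 ng/mL) together with IFN-γ (50 ng/mL), called WT_M1, served as a scale. Unpolarized p53 knockout cells with DMSO were the reference for a set of genes raised by IL-4 and IL-13. The genotype field of the labels calls all bone marrow-derived cells wild-type, while titles and the series design separate wild-type from knockout. The labels do not say whether the 3 libraries of a group came from separate mice or cultures, so p-values measure the spread between these libraries, which may be technical.

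IL-4 and IL-13 act through a shared receptor chain and the transcription factor STAT6, and turn on genes such as Arg1, Retnla, Chil3 and Mrc1. LPS and IFN-γ instead turn on NF-kB and IRF targets, among them cytokines, chemokines and guanylate-binding proteins. Misfolded or modified proteins release the factor HSF1, which binds heat shock elements and induces chaperones such as HSP70, while oxidants and electrophiles stabilize NRF2, which induces Hmox1 and glutathione synthesis.

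The WT_M2 libraries held 3228423 to 4065380 counts, with 13538 to 14238 genes detected. All 13 macrophage identity genes were measured, with a summed level of 25750 to 35460 CPM (read counts scaled to the library's size) per library. DMSO replicate 1 stood apart. On a scale of 154 genes raised by LPS and IFN-γ in wild-type cells, given as the median log2 CPM above unpolarized DMSO cells, DMSO replicates 1, 2 and 3 lay at 1.32, 0.28 and -0.14. The AP-3-84 libraries lay at -0.22, -0.20 and -0.19, and the WT_M1 DMSO libraries at 2.47 to 2.60. Of 8431 well-measured genes, up to 195 differed at least 4-fold between DMSO replicate 1 and another DMSO library, against 44 between DMSO replicates 2 and 3 and 14 to 35 between AP-3-84 libraries. Neutrophil markers also stood out in DMSO replicate 1: the 10 summed to 4039 CPM there, against 466.1 in the lowest DMSO library and 210.4 to 547.2 with AP-3-84. S100a8 was at 2310 CPM in it and at 101.2 to 305.5 CPM in the other 5, Ngp at 220.1 against 18.6 to 49.1 CPM, and the defining marker Ly6g at 1.11 CPM against 0. Of the 7 neutrophil markers tested, 0 passed the test below in either fit. B, T and NK, dendritic, mast cell and erythroid marker lists each summed to at most 12.7 CPM in any library, with Cd79a, Cd3e, Xcr1, Clec9a and Cpa3 at 0 in all 6. The dendritic list, led by Zbtb46, summed to 6.40 to 12.7 CPM with DMSO and 3.40 to 5.09 CPM with AP-3-84. The B cell list was at 6.33 to 6.40 and 3.34 to 5.63 CPM, and the other lists overlapped between groups. The part of these cells in the falls below was not tested. Fibroblast markers summed to 24.7 to 54.0 CPM. In bulk RNA, fewer cells of a type and less RNA per cell cannot be told apart. Each result is therefore given with all 6 libraries and without DMSO replicate 1.

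**Figure D1:**
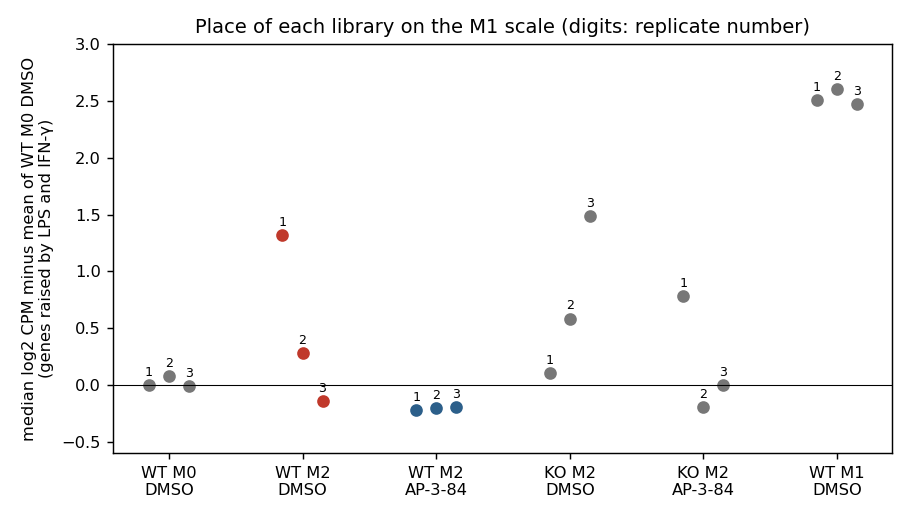
Each point is 1 library (digits give the replicate), grouped along the x axis. The y axis is the median, over 154 genes raised by LPS and IFN-γ, of log2 CPM minus the mean of unpolarized wild-type DMSO cells. WT_M2 DMSO replicate 1 sits at 1.32, while the 3 AP-3-84 libraries sit together at -0.22 to -0.19.

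AP-3-84 raised a few stress genes, chief among them the inducible HSP70 genes Hspa1a and Hspa1b and the small heat shock protein gene Hspb1, and lowered a larger set of immune genes that includes the chemokine Ccl24, the receptor Cd40 and the guanylate-binding proteins Gbp2, Gbp3 and Gbp5. With all 6 libraries, 142 of 11779 genes passed the test (1.21% of genes tested), 27 of them higher (0.229%) and 115 lower (0.976%). Here and below, passing means a Benjamini-Hochberg adjusted p under 0.05 in edgeR's quasi-likelihood test, two-sided and adjusted over all genes tested. Without DMSO replicate 1, 92 of 12072 passed (0.762%), 29 higher (0.24%) and 63 lower (0.522%). Both fits shared 63 genes, 14 higher and 49 lower, all with the same sign, and in all 63 the AP-3-84 and DMSO libraries did not overlap. Over all genes, the groups did not overlap in 1974. A further 79 genes passed with all 6 libraries only, 13 higher and 66 lower, and 29 passed without DMSO replicate 1 only, 15 higher and 14 lower. Of the 66 falls that needed all 6 libraries, 61 had their highest value of all in DMSO replicate 1, as did 16 of the 49 falls called both ways. The 66 were selected as falls lost without that library, which favours such a count in advance. The share over all genes was not taken, so both counts only describe these genes. Among the 49, 4 genes (8.16%) belonged to the scale of LPS and IFN-γ genes, and among the 66 it was 12 (18.2%), against 1.31% of all genes tested. These are 2.60% and 7.79% of that scale's genes. Genes raised by IL-4 and IL-13 in p53 knockout DMSO cells (1340, log2 fold change of at least 1) were more numerous. They made up 23 of the 49 (46.9%) and 24 of the 66 (36.4%), against 11.4% of all genes tested. That is 1.72% and 1.79% of the 1340. Over all 1340, the set did not mark the cytokine treatment in wild-type cells. Its median log2 CPM above unpolarized wild-type DMSO cells was 0.24, 0.07 and -0.12 in the WT_M2 DMSO libraries. It was chosen against unpolarized p53 knockout DMSO cells, which lay at -1.22 to -0.96.

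Single libraries weighed on these counts. With AP-3-84 replicate 1 left out of the 6, 29 genes passed, and with AP-3-84 replicate 2 left out it was 45. When DMSO replicate 1 and a further library were left out, 6 genes passed if that was DMSO replicate 2 and 28 if it was DMSO replicate 3. The loss of the first or the second AP-3-84 library in addition gave 19 and 22. Among the 49 falls called both ways, AP-3-84 replicate 3 lay nearest to DMSO of the AP-3-84 libraries in 42, and among the 14 rises in 11. Scaling by total counts in place of TMM (edgeR's trimmed mean scaling) moved the median of all genes from 0.00 to 0.11 on the log2 scale (from 0.01 to 0.10 without DMSO replicate 1) and the split from 27 higher and 115 lower to 39 higher and 79 lower (34 and 43 without DMSO replicate 1). All 63 shared genes kept their sign under that scaling.

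**Figure D2:**
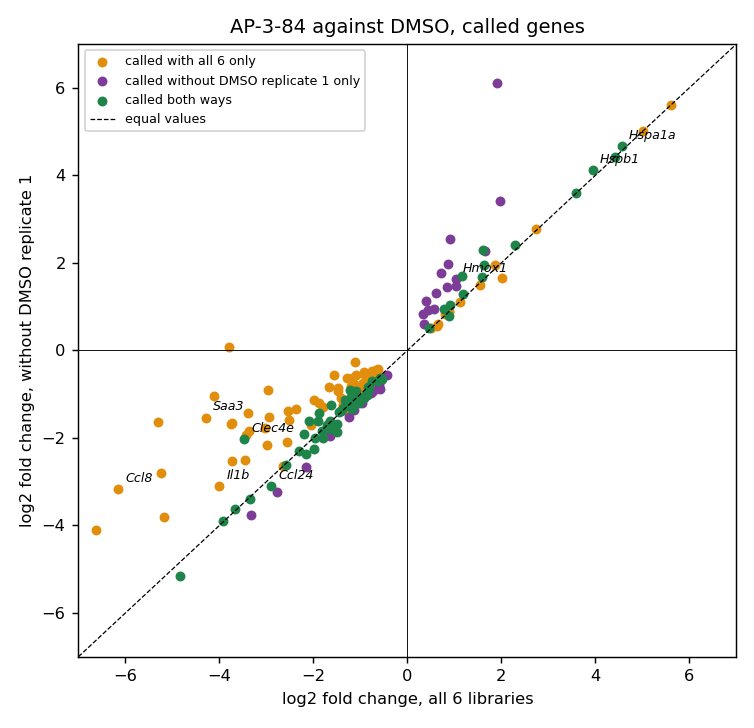
Each point is a gene that passed the test. The x axis is its log2 fold change with all 6 libraries and the y axis without DMSO replicate 1; colours mark the fit in which it passed and the dashed line equal values. Of genes called both ways, Hspa1a lies near the line (4.56 and 4.66), while Clec4e moved from -3.48 to -2.03. Of genes called with all 6 only, R3hdm1 lies near it (0.88 and 0.87). Ccl8 and Saa3 moved from -6.15 to -3.16 and from -4.28 to -1.53.

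Among genes called both ways with a mean log2 CPM of at least 3, the 3 largest rises were those of heat shock protein genes. Hspa1a and Hspa1b are neighbouring genes that encode near-identical inducible HSP70 chaperones. Hspa1a was at 6.68, 5.43 and 5.38 CPM in the DMSO libraries and at 222.9, 100.5 and 92.3 CPM with AP-3-84. That is a mean of 5.83 ± 0.735 against 138.6 ± 73.2 CPM (SD, n = 3 each). All AP-3-84 libraries lay far above all DMSO libraries, replicate 1 highest. The fold change was 23.6 (log2 4.56, SE 0.47, edgeR adjusted p = 1.444e-06), and 25.3 without DMSO replicate 1 (adjusted p = 9.521e-05). Hspa1b was at 2.78, 4.83 and 0.633 CPM with DMSO and at 106.2, 27.1 and 46.4 CPM with AP-3-84. It rose 21.4-fold (log2 4.42, SE 0.56, edgeR adjusted p = 5.192e-05), with wide spread on both sides. Hspb1, which encodes the small chaperone HSP27 (HSP25 in mice), was at 8.35, 6.33 and 5.70 CPM with DMSO and at 140.5, 107.5 and 69.2 CPM with AP-3-84. It rose 15.4-fold (log2 3.95, SE 0.58, edgeR adjusted p = 0.0005258), again with no overlap. In the last 500 bases of its transcripts, 45.3% of the 30-base stretches of Hspb1 also occur in the pseudogene Hsp25-ps1, so its reads may be split. For Hspa1a and Hspa1b the shares were 0.0% and 2.1%, so their 3′ reads can be told apart.

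The promoters of these 3 genes are shown because all of them hold the core of a heat shock element, GAANNTTC, printed in capitals. Each window runs from 250 bases before to 50 after the transcript start (RefSeq, GRCm38.p6), 5′ to 3′ on the gene's strand: Hspa1a at chr17:34972107-34972406 (minus), Hspa1b at chr17:34959189-34959488 (minus) and Hspb1 at chr5:135887669-135887968 (plus).
Hspa1a: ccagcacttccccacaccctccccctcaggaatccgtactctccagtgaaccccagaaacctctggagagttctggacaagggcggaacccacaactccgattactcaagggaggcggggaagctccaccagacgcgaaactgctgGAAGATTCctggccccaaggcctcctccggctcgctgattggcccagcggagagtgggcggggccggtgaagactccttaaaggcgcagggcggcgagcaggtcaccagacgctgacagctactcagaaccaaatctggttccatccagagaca
Hspa1b: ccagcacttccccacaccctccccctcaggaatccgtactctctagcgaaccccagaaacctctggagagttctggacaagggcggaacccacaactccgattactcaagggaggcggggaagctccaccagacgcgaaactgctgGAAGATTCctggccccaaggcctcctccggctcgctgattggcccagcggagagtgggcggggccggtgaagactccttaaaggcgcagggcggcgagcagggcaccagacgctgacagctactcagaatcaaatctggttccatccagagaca
Hspb1: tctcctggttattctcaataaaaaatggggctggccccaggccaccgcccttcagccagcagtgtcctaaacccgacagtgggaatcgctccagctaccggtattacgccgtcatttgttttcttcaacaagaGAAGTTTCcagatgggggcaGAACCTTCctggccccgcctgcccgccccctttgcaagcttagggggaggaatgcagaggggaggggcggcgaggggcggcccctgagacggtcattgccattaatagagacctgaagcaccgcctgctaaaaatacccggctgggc
The match begins at position -104 from the start site in both Hspa1a and Hspa1b, and Hspb1 has matches at -117 and -97. The Hspa1a and Hspa1b windows are alike in 296 of 300 bases, so the same letters surround the match. The core, which reads the same on both strands, occurs in 10 of 18 heat shock list genes with a promoter (55.6%). It is in 9.04% of 27025 genes with a promoter and 7.01% of the tested ones. The other list genes that hold it are Hsph1, Dnaja1, Hspd1, Hspe1, Bag3, Chordc1 and Fkbp4. None of them passed with all 6 libraries, and only Hsph1 did without DMSO replicate 1. Of the 13 genes with a promoter among the 14 called higher both ways, the 3 printed above hold it (23.1%). A match describes the letters only.

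Most other chaperone genes did not pass. The gene lists here and below were written with earlier results of these data known, so their shares are a description. Of 22 heat shock genes tested, 3 passed with all 6 libraries and 4 without DMSO replicate 1, all higher. Over all genes, 0.229% and 0.24% were called higher. The list's median log2 fold change was 0.22 and 0.34, against 0.00 and 0.01 over all genes. The fourth was Hsph1, an HSP110 co-chaperone, at 91.8, 49.8 and 46.2 CPM with DMSO and 110.5, 90.1 and 78.7 CPM with AP-3-84. DMSO replicate 1 overlapped the AP-3-84 libraries. Hsph1 had a log2 fold change of 0.57 with all 6 libraries (adjusted p = 0.2163) and 0.95 without that library (adjusted p = 0.02127). Dnajb1, an HSP40 that works with HSP70, was at 36.2 to 53.8 CPM with DMSO and 57.8 to 76.3 CPM with AP-3-84 and did not pass (adjusted p = 0.1257). The abundant constitutive chaperone gene Hspa8 was at 1063 to 1192 and 1251 to 1606 CPM (adjusted p = 0.1988), and Hsp90ab1 had a log2 fold change of 0.01. Zfand2a, which encodes an arsenite-inducible protein associated with the proteasome, did pass: 40.4, 38.6 and 26.6 CPM with DMSO became 92.9, 83.6 and 64.8 CPM, a rise of 2.28-fold (edgeR adjusted p = 0.001714). Its libraries did not overlap.

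Gadd45g and Dusp6 also rose in both fits. Gadd45g, a stress sensor that activates the p38 and JNK pathways, was at 7.51, 5.13 and 6.65 CPM with DMSO and at 37.7, 31.6 and 25.9 CPM with AP-3-84, a 4.90-fold rise (SE of log2 0.38, edgeR adjusted p = 0.0007894). Dusp6, the phosphatase that switches off ERK, was at 35.9, 18.4 and 22.2 CPM with DMSO and at 91.7, 79.6 and 66.4 CPM with AP-3-84, a rise of 1.63 on the log2 scale (SE 0.35, adjusted p = 0.01142). In both genes every AP-3-84 library exceeded every DMSO library. Of 26 immediate early and stress kinase feedback genes, Gadd45g was the member that passed as higher in both fits. Fosl1, an AP-1 subunit, was low, at 6.68, 1.81 and 0.317 CPM with DMSO and 20.1, 8.58 and 6.95 CPM with AP-3-84, and passed without DMSO replicate 1 only (log2 3.41, adjusted p = 0.03416). Jund, another AP-1 subunit, went the other way, at 291.9, 433.1 and 422.7 CPM with DMSO against 181.6, 224.1 and 229.6 CPM, and also passed without DMSO replicate 1 only (log2 -1.02, adjusted p = 0.03416). Maff, a small MAF factor, was lower with all 6 libraries only (log2 -1.47, adjusted p = 0.02811). The list's median was 0.42, and 0.49 without that library.

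Other rises called both ways had diverse roles. Pgm2l1, which makes glucose 1,6-bisphosphate, went from 34.0, 23.8 and 32.6 CPM to 111.5, 70.2 and 90.3 CPM, a 3.00-fold rise (edgeR adjusted p = 0.0003175). Nedd9, a scaffold of focal adhesions, went from 14.5, 5.73 and 6.65 CPM to 21.6, 19.8 and 19.5 CPM. Its rise was 2.25-fold with all 6 libraries and 3.25-fold without DMSO replicate 1, the DMSO library nearest to the treated ones (adjusted p = 0.04711 and 0.007463). A530064D06Rik (22.0% of its 3′ stretches shared, mainly with 9830107B12Rik) and B430306N03Rik rose 3.06-fold and by 0.91 on the log2 scale. Hpgds, the haematopoietic prostaglandin D synthase, rose 1.72-fold and Mef2a, a MADS-box transcription factor, 1.84-fold. Among genes that needed all 6 libraries, Numbl, Rnf103, R3hdm1 and Olfml3 had log2 fold changes of 1.11, 0.89, 0.88 and 2.02, which were 1.10, 0.89, 0.87 and 1.65 without DMSO replicate 1. The sizes moved little except in Olfml3, while the adjusted p of Numbl went to 0.07447 and that of Olfml3 to 0.1861.

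**Figure D3:**
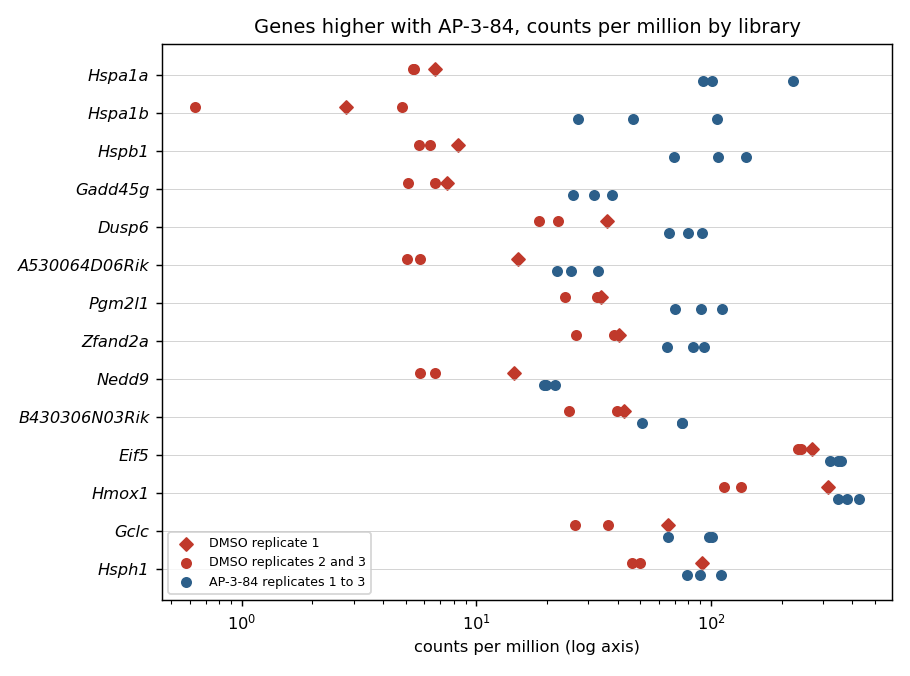
CPM (log axis) of genes higher with AP-3-84, 1 row per gene. Red marks are DMSO libraries, with replicate 1 as a diamond, and blue points AP-3-84 libraries. In Hsph1, DMSO replicate 1 (91.8 CPM) lies above 2 of the treated libraries, and in the other genes no DMSO library does.

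Of the NRF2 targets, Hmox1 and Gclc passed in the fit without DMSO replicate 1 and not in the other. Hmox1, the heme-degrading oxygenase, was at 315.8, 114.0 and 134.6 CPM with DMSO and at 428.3, 346.3 and 378.6 CPM with AP-3-84. The groups did not overlap, with DMSO replicate 1 close to the treated libraries. The log2 fold change was 1.03 with all 6 libraries (adjusted p = 0.09924) and 1.62, or 3.08-fold, without DMSO replicate 1 (adjusted p = 0.004112). Gclc, the catalytic subunit of glutathione synthesis, was at 65.4, 36.5 and 26.3 CPM against 97.6, 65.7 and 101.2 CPM. Its log2 fold change was 1.04 with all 6 libraries (edgeR adjusted p = 0.1157). It passed only without DMSO replicate 1 (2.79-fold, adjusted p = 0.03112). Srxn1, which repairs oxidized peroxiredoxins, was at 290.4 to 483.3 CPM with DMSO and 579.5 to 680.1 CPM with AP-3-84 and passed in neither fit (adjusted p = 0.2745 and 0.199). Of 25 NRF2 targets tested, 0 passed with all 6 libraries and 2 without DMSO replicate 1, against 0.24% of all genes called higher there. A positive log2 fold change was found in 17 and 20 of them, and in 5906 and 6042 of all 11779 genes. The list's median was 0.14 and 0.26. Prdx1, a peroxiredoxin, was at 12720 CPM in DMSO replicate 1 and at 3782 to 4869 CPM in the other 5. The antioxidant response element core TGACNNNGC, searched on both strands, occurs in 8 of 20 NRF2 list genes with a promoter (40.0%). It is in 13.99% of all genes with a promoter and 17.2% of the tested ones. For Hmox1 and Gclc no promoter was available to search.

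The integrated stress response, in which phosphorylation of eIF2 leads to ATF4 translation, had 1 member that passed in both fits. Eif5, a translation initiation factor, was at 268.2, 235.8 and 241.0 CPM with DMSO and 357.9, 321.9 and 347.2 CPM with AP-3-84, a rise of 1.38-fold with narrow spread (edgeR adjusted p = 0.03186, and 0.04735 without DMSO replicate 1). The call with all 6 libraries was lost in 8 of 12 alternatives, among them the loss of any AP-3-84 library. Of 32 members tested, 25 had a positive log2 fold change (28 without that library), with a median of 0.30 (0.42). Over all 11779 genes, 5906 (6042) were positive. Trib3, an ATF4 target that curbs AKT, was at 9.18 to 20.6 CPM with DMSO and 28.6 to 38.6 CPM with AP-3-84 and did not pass (log2 1.26, adjusted p = 0.2607). Gdf15, a stress-induced cytokine, was at 62.1, 34.1 and 46.6 CPM against 96.7, 63.3 and 56.7 CPM (adjusted p = 0.4176), so its groups overlapped. The C/EBP-ATF element TGATGNAA, on either strand, is in 10 of 30 of this list's promoters (33.3%), in 4.51% of all genes and in 2.8% of the tested ones. The window of Eif5 holds no match, and the element is in 1 of 13 genes called higher both ways (7.69%) and 6 of 37 called lower both ways (16.2%). In the unfolded protein response list 0 of 18 passed, with a median of 0.11. None of 25 p53 targets passed in either fit, with a median of 0.32 (0.35). Cdkn1a, the cell cycle inhibitor p21, was at 777.2 to 1115 CPM with DMSO and 824.9 to 1119 CPM with AP-3-84 (log2 0.16, adjusted p = 0.8903).

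Of 27 cytokine and chemokine genes tested, 11 were lower with all 6 libraries and 4 without DMSO replicate 1, against 0.976% and 0.522% of all genes, and 0 were higher. The median was -2.20 and -1.32. The 4 were Ccl9, Cxcl16, Tnfsf15 and Il12b. Ccl9, a chemokine that macrophages make in quantity, was at 2036, 1866 and 1325 CPM with DMSO and at 759.9, 749.5 and 781.3 CPM with AP-3-84. The treated libraries lay within a narrow band below every DMSO library, 2.28-fold lower (log2 -1.19, SE 0.19, edgeR adjusted p = 0.0007737). Cxcl16, a membrane-bound chemokine and scavenger receptor, was at 526.8, 487.7 and 432.9 CPM against 176.3, 171.6 and 209.6 CPM, 2.60-fold lower (adjusted p = 0.001714). Tnfsf15, a TNF-family ligand, fell from 9.46, 9.35 and 7.60 CPM to 0.309, 0.268 and 1.39 CPM, 12.7-fold on the fitted scale (adjusted p = 0.001714). Il12b, the p40 subunit of IL-12 and IL-23, was at 9.46, 16.6 and 0.950 CPM against 0.309, 0.536 and 0.834 CPM. Its DMSO replicate 3 lay just above the treated libraries (adjusted p = 0.007248, and 0.02483 without DMSO replicate 1). The neutrophil marker levels given above were also highest in DMSO replicate 1, and their part in these falls was not tested.

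Receptors and signalling proteins of the innate response fell in both fits. Cd40, the receptor for T cell help, was at 47.9, 80.2 and 57.6 CPM with DMSO and 19.1, 12.9 and 28.1 CPM with AP-3-84, 3.09-fold lower (edgeR adjusted p = 0.0003175). DMSO replicate 1 was the lowest of its group, and without it the fall was 3.46-fold (adjusted p = 0.0002914). Traf1, an adaptor of TNF receptors, went from 103.8, 60.3 and 35.8 CPM to 10.8, 15.6 and 20.6 CPM, 4.25-fold lower with all 6 libraries and 3.08-fold without DMSO replicate 1. Clec4e, the receptor Mincle for microbial glycolipids, was at 811.4, 177.6 and 82.3 CPM against 25.3, 29.5 and 41.1 CPM. The fold depended on the first DMSO library, 11.2 with it (adjusted p = 0.002865) and 4.09 without (adjusted p = 0.03416). Malt1, the paracaspase upstream of NF-kB, was at 42.0, 25.9 and 14.3 CPM against 7.72, 5.63 and 9.17 CPM (adjusted p = 0.001714 and 0.03416). Ptafr, the receptor for platelet-activating factor, fell from 79.0, 88.4 and 58.3 CPM to 26.6, 29.5 and 28.1 CPM (adjusted p = 0.0003175), and Gpr132, a lysolipid- and lactate-linked receptor, from 24.2, 38.0 and 36.4 CPM to 11.4, 8.58 and 14.7 CPM (adjusted p = 0.01142). In the 30 NF-kB effector genes 10 passed with all 6 libraries and 3 without DMSO replicate 1, all lower. Over all genes, 0.976% and 0.522% were called lower. The list's median was -1.65 and -0.85. The 3 were Cd40, Traf1 and Clec4e.

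Guanylate-binding proteins, GTPases that attack vacuoles of intracellular microbes, fell as well. Gbp2 was at 71.2, 153.8 and 77.3 CPM with DMSO and at 8.96, 11.8 and 46.7 CPM with AP-3-84. AP-3-84 replicate 3 stood well above the other treated libraries, and the fall was 4.46-fold (SE of log2 0.50, edgeR adjusted p = 0.02811). Gbp3 was at 13.4, 16.9 and 15.2 CPM against 4.01, 2.95 and 7.23 CPM (3.18-fold, adjusted p = 0.01119). Gbp5 was at 7.51, 9.35 and 6.97 CPM against 0, 0.536 and 1.67 CPM (adjusted p = 0.001714). Gbp7 passed with all 6 libraries only (log2 -1.41, and -1.09 without DMSO replicate 1). With the immunity-related GTPases and MHC class II genes, 4 of 21 members were lower with all 6 libraries and 3 without DMSO replicate 1. Over all genes, 0.976% and 0.522% were called lower. The list's medians were -1.25 and -1.16. The MHC class II gene H2-Aa was at 144.1, 1037 and 833.4 CPM with DMSO and 161.8, 201.0 and 438.6 CPM with AP-3-84. DMSO replicate 1 was lower than the treated libraries, and the other DMSO libraries were above them. The gene passed in neither fit (edgeR adjusted p = 0.4846 and 0.2673). Of 40 interferon-stimulated genes 1, Ifi47, passed with all 6 libraries (45.4, 43.4 and 27.9 CPM against 13.3, 18.0 and 13.6 CPM, adjusted p = 0.02184), and 0 did without DMSO replicate 1 (Ifi47 at 0.09128), where over all genes 1403 had an unadjusted p under 0.05 and 92 passed. All 40 had a negative log2 fold change with all 6 libraries and all but 6 without DMSO replicate 1, with medians of -0.99 and -0.35. Over all genes, 5906 and 6042 of 11779 had a positive one, and 0.976% and 0.522% were called lower. The interferon-stimulated response element core GAAANNGAA, on either strand, is in 16 of 29 of this list's promoters (55.2%), in 9.76% of all genes and in 8.95% of the tested ones. Of genes called lower both ways, 6 of 37 hold it (16.2%), among them Gbp2, Gbp3 and Gbp5. It is in 2 of 13 genes called higher both ways (15.4%), a like share.

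Other falls called both ways belonged to none of the gene lists, and those described here are examples, most of them chosen after their values were seen. Slamf8, a receptor that modulates the phagocyte oxidase, was at 75.1, 86.0 and 73.8 CPM with DMSO and 9.57, 21.2 and 28.9 CPM with AP-3-84, 3.91-fold lower (edgeR adjusted p = 0.001703). Slamf7, of the same family, was at 238.7, 262.7 and 215.0 CPM against 53.4, 63.5 and 84.8 CPM, 3.55-fold lower. The DMSO libraries of both genes, replicate 1 included, lay close together. Cybb, the catalytic subunit of the phagocyte oxidase, fell 2.52-fold, from 1808, 1375 and 1087 CPM to 469.0, 517.4 and 705.1 CPM (adjusted p = 0.005361). C3, the central complement protein, fell 3.08-fold and F10, coagulation factor X, 2.74-fold. Tapbp, which loads peptides onto MHC class I, and Psmb10, an immunoproteasome subunit, fell 2.10-fold and 1.89-fold. Gsdmd, the pore former of pyroptosis, fell 1.79-fold. Cd83, a marker of activated antigen-presenting cells, was lowest of the DMSO group in replicate 1, at 26.4 CPM against 68.5 and 88.0 CPM, and fell to 19.1, 19.0 and 26.1 CPM (adjusted p = 0.0438, and 0.006808 without it). Lad1, AW112010, Bcl2a1a and Arl5c were 5.98-, 4.93-, 4.57- and 3.94-fold lower. Bcl2a1a, a BCL2-family survival gene, shares 80.9% of its 3′ stretches with its copies, mainly Bcl2a1d, so the call may belong to any of them, and Arl5c shares 11.7%. The list of 35 proteasome and ubiquitin genes had no member that passed, with a median of -0.11 and -0.03.

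**Figure D4:**
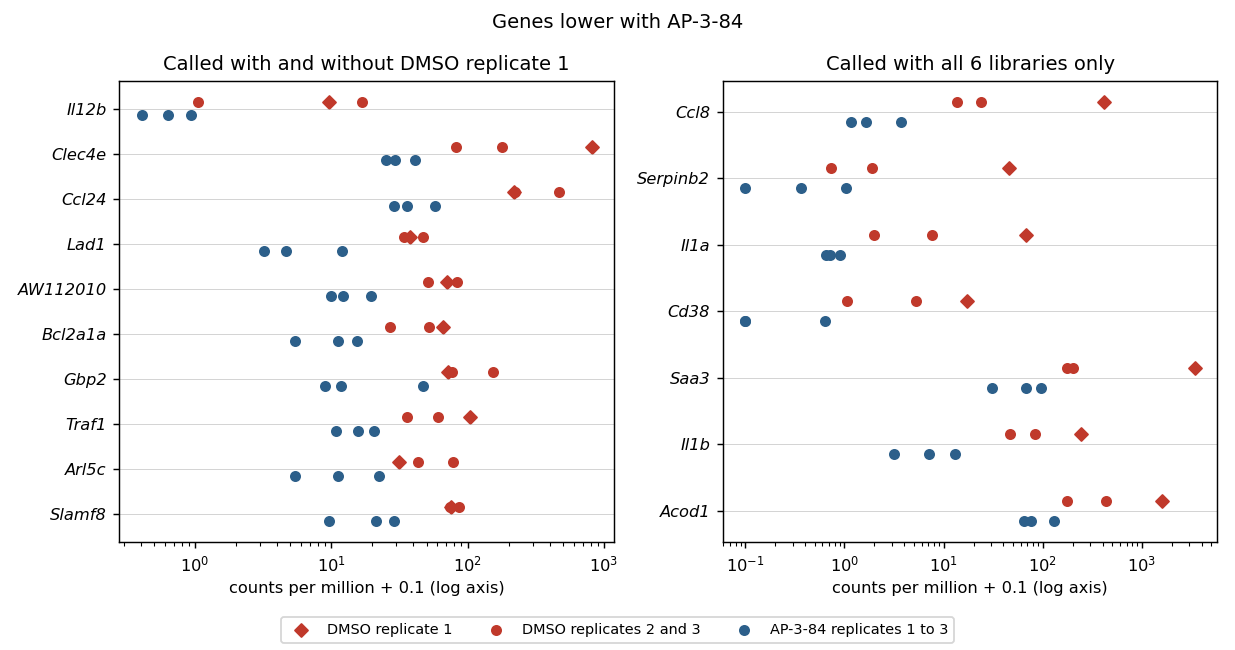
CPM plus 0.1 (log axis) of genes lower with AP-3-84, 1 row per gene, with the 10 largest falls called both ways at a mean log2 CPM of at least 3 on the left and genes called with all 6 libraries only on the right. Red marks are DMSO libraries, with replicate 1 as a diamond, and blue points AP-3-84 libraries. On the right DMSO replicate 1 is the highest library in every row.

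Several of the largest falls with all 6 libraries were smaller, and no longer passed, without DMSO replicate 1. Ccl8, Il1a, Il1b, Acod1, Saa3, Serpinb2 and Cd38 also lost the call without AP-3-84 replicate 1 or without AP-3-84 replicate 2. So did genes called both ways, such as Dusp6, Gbp2, Gbp3, Arl5c, Il12b, Gpr132, Nedd9 and Eif5. Ccl8, a monocyte chemokine, was at 412.4, 23.8 and 13.6 CPM with DMSO and at 1.54, 1.07 and 3.61 CPM with AP-3-84. The groups did not overlap, but the log2 fold change was -6.15 with all 6 libraries (adjusted p = 0.006224) and -3.16 without DMSO replicate 1 (adjusted p = 0.1136). Saa3, an acute phase protein induced by LPS, was at 3421 CPM in that library, 200.6 and 173.5 CPM in the other DMSO libraries and 67.6, 96.2 and 30.9 CPM with AP-3-84 (adjusted p = 0.02184 with it and 0.3744 without). Il1b, the inflammasome-processed cytokine, was at 240.1, 84.1 and 46.6 CPM against 3.09, 6.97 and 12.8 CPM. Its log2 fold change was -4.00 (adjusted p = 0.008492), and -3.09 without DMSO replicate 1 (adjusted p = 0.06649), where the groups stayed apart. Il1a was at 68.2, 7.54 and 1.90 CPM against 0.618, 0.804 and 0.556 CPM (log2 -5.24, and -2.79 with adjusted p = 0.08459 without that library). Acod1, which makes itaconate, was at 1582, 436.4 and 176.4 CPM against 76.0, 64.3 and 128.7 CPM (adjusted p = 0.006224, and 0.08302 without). Serpinb2, Cd38 and the LPS co-receptor Cd14 passed with all 6 libraries, at log2 fold changes of -5.31, -5.17 and -1.28. Without it these were -1.63, -3.82 and -0.62, with adjusted p of 0.6673, 0.2107 and 0.3928. Serpinb2 and Saa3 share 24.9% and 12.4% of their 3′ stretches with other genes. Nos2, the inducible nitric oxide synthase of LPS-treated macrophages, was at most 5.01 CPM and passed in neither fit (adjusted p = 0.175 and 0.6244).

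Listed genes of the IL-4 and IL-13 program mostly did not pass. Ccl24, an eosinophil-attracting chemokine of this program, was the exception in both fits: 220.7, 472.3 and 222.9 CPM with DMSO became 28.7, 35.9 and 57.8 CPM with AP-3-84. It was 7.46-fold lower (log2 -2.90, SE 0.52, edgeR adjusted p = 0.00351), and 8.56-fold without DMSO replicate 1 (adjusted p = 0.00574). Of 27 list members tested, 1 was lower and 0 higher in each fit, against 0.976% and 0.522% of all genes called lower. The list's medians were -0.40 and -0.60. DMSO replicate 1 was uneven here: it was under 0.5 times both other DMSO libraries in 9 of 27 members and the highest DMSO library in 9. Retnla, a secreted cysteine-rich protein, was at 455.5 CPM in it against 4299 and 2661 CPM in the other DMSO libraries, and at 935.0, 1485 and 1038 CPM with AP-3-84 (adjusted p = 0.6571, and 0.4327 without it). Ccl17, a chemokine for T cells, was at 7.79 CPM in it against 154.7 and 143.4 CPM, and at 3.40, 9.92 and 63.7 CPM with AP-3-84 (log2 -2.54 without it, adjusted p = 0.09595). Flt1, a VEGF receptor, was at 16.1 CPM in DMSO replicate 1 and between 157.2 and 175.4 CPM in the other 5 libraries. Against DMSO replicates 2 and 3, the 3 AP-3-84 libraries were lower without overlap in 16 of 27 members, against 16.0% of all genes tested. Against all 3 DMSO libraries it was 5 of 27, and 8.8% of all genes.

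The classical markers of the program were not shown to change. Arg1, arginase 1, was at 2240, 1003 and 1140 CPM with DMSO and 1543, 1714 and 1357 CPM with AP-3-84 (log2 0.07, SE 0.46, adjusted p = 0.9752; 0.51 without DMSO replicate 1). Chil3, a chitinase-like lectin, was at 6183, 2902 and 2338 CPM against 1427, 1607 and 1456 CPM. The groups did not overlap, yet the gene passed in neither fit (log2 -1.35, SE 0.55, adjusted p = 0.2989; log2 -0.82 without DMSO replicate 1, adjusted p = 0.6244), and it shares 25.3% of its 3′ stretches, mainly with Chil4. Mrc1, the mannose receptor, was at 1505, 963.0 and 891.4 CPM against 1370, 1250 and 1192 CPM (log2 0.18, adjusted p = 0.9059). Other programs had no member that passed in both fits. In the cell cycle list 0 of 26 passed, although all 26 log2 fold changes were positive with all 6 libraries and 25 without DMSO replicate 1 (median 0.47 and 0.30). Over all 11779 genes, 5906 and 6042 were positive. The sterol synthesis, lysosome, metallothionein and glycolysis lists had 0 of 20, 0 of 21, 0 of 4 and 0 of 15. Their medians were 0.24, -0.03, -0.21 and -0.11, and -0.03, 0.00, 0.12 and 0.43 without that library. Among 13 macrophage identity genes 1, Cd14, passed, with all 6 libraries only, and the medians were -0.32 and -0.44.

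The responses of unpolarized wild-type cells and of p53 knockout cells under the same cytokines share no library with WT_M2. The difference of the AP-3-84 response, WT_M2 minus WT_M0, passed for 16 genes (0.136%), 14 of them more negative in WT_M2, and without DMSO replicate 1 for 5 (0.0414%), 3 of them shared. It was called for 0 genes when any of several single libraries was left out (WT_M2 DMSO replicate 2, AP-3-84 replicate 1 or 2, WT_M0 DMSO replicate 1, WT_M0 AP-3-84 replicate 1 or 2), where 1361 genes had an unadjusted p under 0.05 with all libraries and DESeq2 called 117. Gpr132 and Ptafr passed in both fits: Gpr132 had a log2 fold change of -1.50 in WT_M2 and 1.27 in WT_M0 (difference -2.77, adjusted p = 0.01525 and 0.009734), Ptafr -1.42 and 0.23 (difference -1.65, adjusted p = 0.01525 and 0.04682). Hspa1a rose in WT_M0 too, with a log2 fold change of 3.85 (adjusted p = 0.001147), and its difference did not pass (0.71, adjusted p = 0.773). Hspb1 was at 3.95 in WT_M2 and 1.49 in WT_M0 (difference adjusted p = 0.2746). On their own, WT_M0 had 17 calls, all higher, and KO_M2 had 4 higher and 2 lower, so few falls could be shared with either. Of the 49 falls called both ways, 10 differed from WT_M0 by the test of the difference, against 0.136% of all genes. These falls were called from WT_M2 libraries that also enter the difference, so the count is a description.

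WT_M2 and KO_M2 differed in more genes. The knockout label was checked by Cdkn1a, a p53 target, at 777.2 to 1115 CPM in WT_M2 and 55.5 to 142.1 CPM in KO_M2 with DMSO. Trp53 itself had 5.38 to 9.95 and 2.70 to 7.19 CPM, and the deleted segment is not named in the labels, so 3′ reads check nothing there. The difference of the response passed for 208 genes (1.77%), 81 more positive and 127 more negative in WT_M2, and for 238 (1.97%) without DMSO replicate 1, with 150 shared. KO_M2 DMSO replicates lay at 0.10, 0.59 and 1.48 on the scale of LPS and IFN-γ genes and KO_M2 AP-3-84 replicates at 0.78, -0.19 and 0. The count of differences was 751 without KO_M2 DMSO replicate 1, 46 without replicate 2 and 53 without replicate 3; the part of this spread in the difference was not tested. It was also 94 without WT_M2 DMSO replicate 2, 50 and 72 without AP-3-84 replicate 1 or 2 of WT_M2, and 76 and 92 without AP-3-84 replicate 2 or 3 of KO_M2. The genes below were called in WT_M2 from the same libraries that enter the difference, so their share is a description. Of the 49 falls called both ways, 39 differed from KO_M2 and 40 had the opposite sign there, with a median of 0.30 in KO_M2 against -1.46 in WT_M2. Of the 14 rises, 8 differed and 8 had the opposite sign. Over all genes tested, 55.6% had the opposite sign in KO_M2, so the sign count of the rises is near the background.

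By gene, Ccl24 had a log2 fold change of -2.90 in WT_M2 and 0.65 in KO_M2 (difference -3.55, edgeR adjusted p = 0.009604), where it was at 98.9 to 664.7 CPM with DMSO and 292.1 to 650.8 CPM with AP-3-84. Malt1 was at 10.2 to 18.0 CPM with DMSO in KO_M2 and at 25.2 to 54.4 CPM with AP-3-84, the reverse of WT_M2 (difference -3.34, adjusted p = 0.000137). Pgm2l1 was at 11.4 to 29.3 CPM and 7.34 to 10.4 CPM there, a log2 fold change of -1.21 against 1.59 (difference 2.79, adjusted p = 6.64e-05). Gadd45g and Dusp6 were at -0.55 and -0.88 in KO_M2 against 2.29 and 1.63 (adjusted p of the difference = 0.004607 and 0.01351). Within KO_M2 alone, the responses of Ccl24, Malt1, Pgm2l1, Gadd45g and Dusp6 did not pass (edgeR adjusted p = 0.6135, 0.05861, 0.08817, 0.59 and 0.3572). A reversed response in knockout cells was thus not shown. For the HSP70 genes the difference did not pass. Hspa1a rose in KO_M2 from 0.992 to 5.04 CPM up to 27.4 to 34.9 CPM, a log2 fold change of 3.53 (adjusted p = 0.001162), and Hspa1b by 3.32 (adjusted p = 0.0348). Their differences from WT_M2 were 1.02 and 1.10 (adjusted p = 0.5326 and 0.6108), which does not show that the responses were equal.

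**Figure D5:**
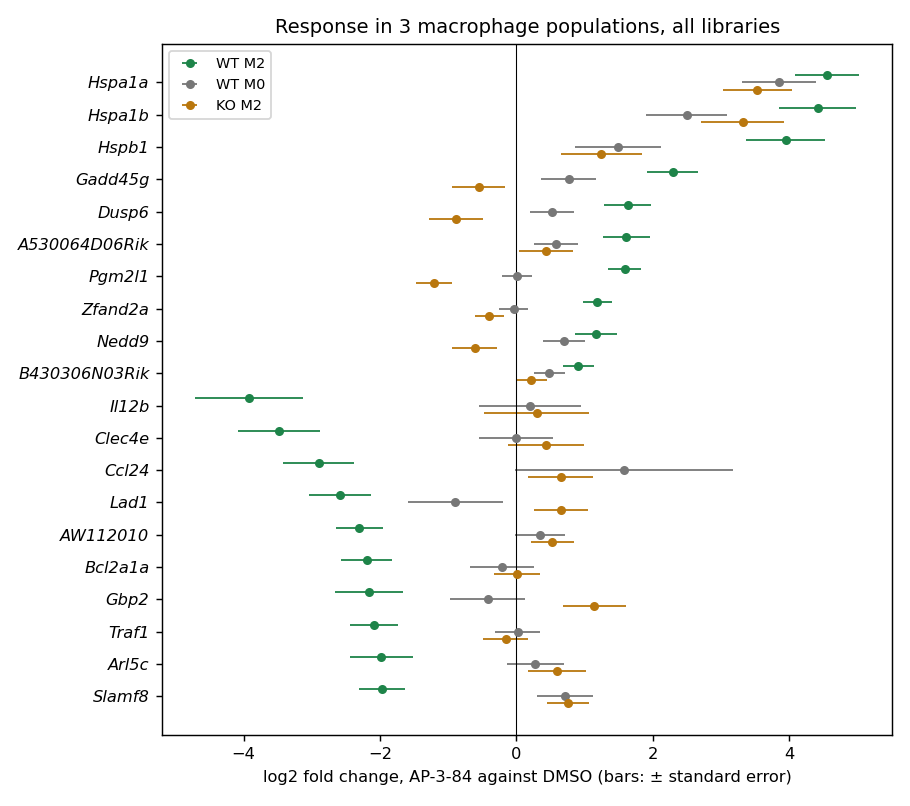
Log2 fold change of AP-3-84 against DMSO (x axis, bars ± SE) in WT_M2, WT_M0 and KO_M2 for the 10 largest rises and 10 largest falls called both ways in WT_M2 at a mean log2 CPM of at least 3. Hspa1a lies at 4.56, 3.85 and 3.53, while the falls of WT_M2 lie near or above 0 in KO_M2, such as Ccl24 at -2.90 against 0.65.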

How the data were processed

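RNA of 36 bone marrow-derived macrophage libraries was used (QuantSeq FWD 3′ kit, 100 ng of RNA, single reads of 75 bases, per the labels' protocols), and 12 peritoneal libraries were not. The deposited table holds raw counts per gene (51789 Ensembl IDs, whole numbers). RSEM, Bowtie2 and DESeq2 are named in the submitters' processing notes without versions or roles; the build is not given in the sources used here. A 3′ read marks a transcript end, so levels between genes are not corrected for length and folds refer to these ends. Groups came from titles.

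Counts were filtered by filterByExpr, scaled by TMM and fitted with edgeR 4.0.16 (quasi-likelihood, robust, 1 mean per group, 36 libraries, or 35 without WT_M2 DMSO replicate 1; biological coefficient of variation 0.225 and 0.218). CPM uses these scaled library sizes. Differences of responses are interaction contrasts. The code was tested on simulated data. Members and gene lists were chosen with earlier results of these data known. Named genes were, at a mean log2 CPM of at least 3, the 10 largest rises and 10 largest falls called both ways without overlap, 5 of each called with all 6 only, up to 4 called genes per list, the 2 lowest p of each interaction, and 14 fixed genes such as Arg1, Il1b and Hspa1a. Others (for example Slamf7, Cybb, C3, F10, Tapbp, Psmb10, Gsdmd, Cd83, Mef2a, Hpgds, Flt1, Ccl17, H2-Aa, Prdx1, Trib3, Dnajb1, Hspa8) were chosen after their values were seen. Overlap of 3′ ends was read from GENCODE M21 transcripts; 7 of 59 named genes shared over 10% of their 30-base stretches. Alternatives were RLE and total-count scaling, no filter, DESeq2 1.42.0, WT_M2 libraries alone, a replicate block, a 2-fold call and each library left out.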

Additional observations from a re-analysis of the deposited data

Results flagged for a closer look

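Each of the 59 named genes was looked at in both contrasts. For 27 gene and contrast pairs, the AP-3-84 response differed between populations both with and without DMSO replicate 1. Over all genes, the difference passed for 0.136% against WT_M0 and 1.77% against KO_M2 (0.0414% and 1.97% without that library). Many named genes were chosen by their WT_M2 response or by the lowest p of a difference, from these same libraries. The count of pairs is thus a description. The test was the interaction test (edgeR, adjusted over all genes), and values are from all libraries. Other named genes passed with all libraries only. Examples are AW112010 and Slamf8 against WT_M0 (edgeR adjusted p = 0.03442 and 0.03878) and Ccl8 and Il1b against KO_M2 (0.02705 and 0.0237). The pairs that passed in both fits follow. Against unpolarized wild-type cells, the difference in log2 fold change was -2.77 for Gpr132 and -1.65 for Ptafr. Against p53 knockout cells under the same cytokines, the response of WT_M2 was more negative for Clec4e (-3.91), Gbp5 (-3.78), Ccl24 (-3.55), Tnfsf15 (-3.37), Malt1 (-3.34), Gbp2 (-3.30), Lad1 (-3.24), AW112010 (-2.83), Slamf8 (-2.72) and Maff (-2.65). It was also more negative for Arl5c (-2.58), Bcl2a1a (-2.21), Gbp3 (-2.10), Gpr132 (-1.85), Cxcl16 (-1.82), Ptafr (-1.72), Cd40 (-1.62), Jund (-1.47) and Ccl9 (-1.45). It was more positive for Gadd45g (2.85), Pgm2l1 (2.79), Dusp6 (2.51), Nedd9 (1.78), Zfand2a (1.59) and Eif5 (0.61). Their libraries are those of the counts that moved most when 1 knockout DMSO library was left out, and the part of that library in each difference was not tested.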

How the results depend on the processing

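Counts of genes called moved with the processing, and the causes were not tested. With all 6 libraries (142 called), no filter on low counts gave 496, DESeq2 269, WT_M2 libraries alone 59 and the replicate block 60, and leaving out each library in turn gave 29 to 188. Without DMSO replicate 1 (92 called), no filter gave 413, DESeq2 167, WT_M2 libraries alone 371 and the replicate block 9, and leaving out a further library gave 6 to 115. A lone DMSO library is then assumed to vary like the other groups. For WT_M2 minus WT_M0 (16), total-count scaling gave 6, no filter 452, DESeq2 117, the replicate block 0, and leaving out 1 library 0 to 43; without DMSO replicate 1 (5), median-ratio and total-count scaling each gave 1, no filter 471, DESeq2 116, the replicate block 0, and leaving out 1 library 0 to 63. For WT_M2 minus KO_M2 (208), no filter gave 757, DESeq2 351, the replicate block 80, and leaving out 1 library 46 to 751; without DMSO replicate 1 (238), no filter gave 784, DESeq2 425, the replicate block 8, and leaving out 1 library 16 to 922. Leaving out libraries for these differences was chosen after seeing the data. Same-numbered WT_M2 libraries deviated together in 2 of 3 pairs (correlations -0.14 to 0.28), and 2 of 3 AP-3-84 libraries were closest to their own number, which falls short of the level set for treating the numbers as pairs (every correlation over 0.1). The labels do not say what a number marks, so whether the libraries were paired is not known.

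Of the 63 genes called both ways, 62 were kept with median-ratio scaling, 54 with total counts, 60 with no filter, 63 with DESeq2, 30 with WT_M2 libraries alone and 40 with the replicate block, and 26 without AP-3-84 replicate 1. The sign was the same in all 63 under each of these except WT_M2 libraries alone (61). Of 46 named genes called with all 6 libraries, 13 passed under every alternative and 0 reversed. Without DMSO replicate 1 it was 1 of 35. The uncalled Arg1 moved from 0.07 to 0.51 without DMSO replicate 1 and reversed to -0.13 without DMSO replicate 2, -0.07 without DMSO replicate 3 and -0.01 without AP-3-84 replicate 2. List counts moved to 0 for the integrated stress response (without DMSO replicate 1) and 2 for interferon-stimulated genes (all 6) with median-ratio scaling, and with total counts to 1 for p53 targets (without DMSO replicate 1), 1 for immediate early genes and 0 for macrophage identity (all 6). With the 100 largest genes, AP-3-84 replicates 1 and 2 moved to -0.18 and -0.27 on the scale of LPS and IFN-γ genes. On a scale of genes raised by IL-4 and IL-13 in knockout cells, the DMSO libraries moved from 0.24, 0.07 and -0.12 to 2.84, 2.48 and 2.01 and the AP-3-84 libraries from 0.16, 0.07 and -0.02 to 1.93, 1.93 and 1.86. Depth limits genes at a few CPM, where 1 count is a large share.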
